A study of Arabidopsis thaliana with 6 samples.

Results

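The *psaA*, *psaB* and *rps14* genes stand next to each other in the chloroplast genome of *Arabidopsis* and are transcribed together. They were taken by name and make up 3 of the 73 chloroplast mRNAs in the table. The study asked which chloroplast RNAs are associated with CP31A, an RNA binding protein of the chloroplast ribonucleoprotein family. It used DO-RIP-Seq, in which plant material is cross-linked with formaldehyde and sequencing covers the nuclease-trimmed RNA pieces that an antibody against CP31A brings down. All 6 libraries came from seedlings of wild-type Columbia-0, 14 days old and raised in long days at 21 °C. They form 3 CP31A pellets (antibody against CP31A) and 3 inputs (no antibody selection, taken from the same mix as the pellet of that number before washing). Extracts were made from bulk plant material, so that a level is a mean over its cells, and fewer cells with an RNA cannot be told apart from less of it per cell. The cross-linking also holds proteins to each other, and an RNA in the pellet may be bound by CP31A or by a partner. Libraries from non-specific immunoglobulins were not analysed here.

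Photosystem I is the thylakoid complex that uses light to pass electrons from plastocyanin to ferredoxin. PsaA and PsaB are its large core proteins, which pair to hold the reaction centre chlorophylls and the first electron carriers, and the complex cannot assemble without them. Rps14 is a protein of the small subunit of the chloroplast ribosome, so that the transcript joins genes for photosynthesis and for translation. Chloroplast transcripts of this kind are cut and trimmed after transcription, and RNA binding proteins at their ends and spacers can protect the parts that are kept.

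On the chloroplast sequence of RefSeq (TAIR10.1) all 3 genes lie on the minus strand, each as a single coding exon without an intron. *psaA* comes first in the direction of transcription, from 41857 down to 39605, with 750 codons before the stop codon. *psaB* follows after a spacer of 25 nt, from 39579 down to 37375, with 734 codons. *rps14* follows after another 134 nt, from 37240 down to 36938, with 100 codons. The bases around each start codon are shown because they include the spacer between the core genes and show what the genes share where translation begins. Each line runs 5′ to 3′ on the coding strand, as DNA, for 27 bases before the start codon and the start codon itself. Capitals mark the start codon and, within the 20 bases before it, the first match (from the 5′ side) to each motif searched. The motifs were the motif GGAGG, the motif GGAG, the motif GAGG and the motif AGGA. They are letters of the ribosome binding site of bacteria (the Shine-Dalgarno sequence). Marked matches that overlap run together. In *psaA* and *psaB* a second match to the motif AGGA ends on the base after the capitals, which is left in lower case.
psaA: tgtgttgtccggaaaGAGGAGGactcaATG
psaB: aatggctAGGAGGatttgaaaggcattATG
rps14: attgataataacAGGAactgaagcattATG

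The lines cover bases 41884 to 41855 for *psaA*, 39606 to 39577 for *psaB* and 37267 to 37238 for *rps14*. The first 2 bases of the *psaB* line are the end of *psaA*, and the rest up to the start codon is the whole spacer. GGAGG lies 5 bases before the start codon in *psaA* and 14 bases before it in *psaB*, and *rps14* has AGGA 11 bases before it. Among 77 protein-coding chloroplast genes searched on the coding strand in the same 20 bases, GGAGG was found in 16.9%, GGAG in 28.6%, GAGG in 26.0% and AGGA in 31.2%. Any of them was found in 48.1%. These matches describe the letters and were not tested for use by the ribosome or by CP31A.

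The authors counted reads over each gene with 100 nt on each side, so neighbouring windows share bases. The windows of *psaA* and *psaB* share 175 nt, which is 7.13% of the *psaA* window and 7.28% of the *psaB* window. Those of *psaB* and *rps14* share 66 nt, which is 2.74% of the *psaB* window and 13.1% of the *rps14* window. How reads in the shared bases were assigned is not given in the sources used here. *psaA* and *psaB* are related genes, and their coding sequences were identical at 55.5% of 2347 aligned positions, with 32 nt as the longest stretch in common. Reads were kept at 40 to 60 nt, and no stretch of 40 nt from any of the 3 coding sequences occurred a second time in the chloroplast genome on either strand.

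**Figure D1:**
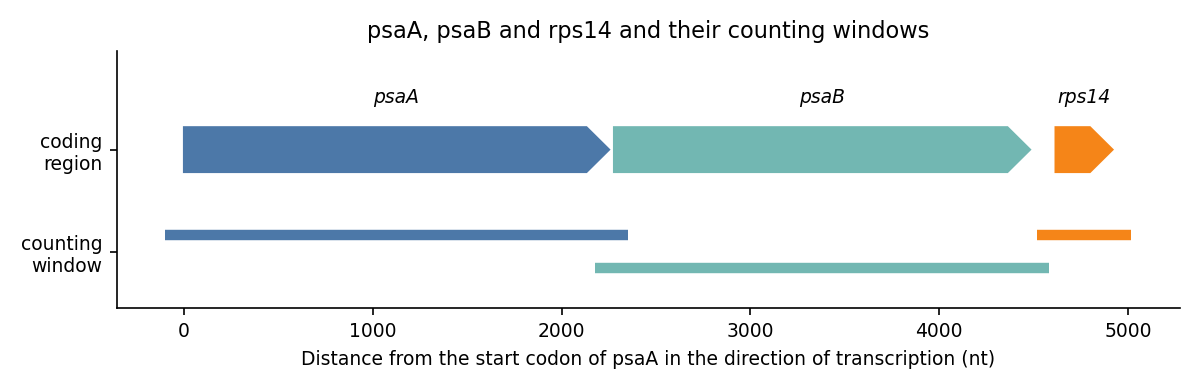
Map of *psaA*, *psaB* and *rps14*, with the distance in nt from the start codon of *psaA* on the x axis. Arrows are coding regions, and bars below them are the windows in which reads were counted. The windows of neighbours overlap by 175 nt (*psaA* and *psaB*) and by 66 nt (*psaB* and *rps14*).

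The deposited values are TPM, which divide reads by window length and bring all libraries to a common total. They are therefore shares of the chloroplast mRNAs, and levels of different genes can be set side by side after correction for length alone. Whether pieces of different genes were recovered equally well was not tested. Whole reads could be computed back from them and numbered 251570 to 392286 in the pellets and 24224 to 73526 in the inputs, over all 73 RNAs. The inputs were thus the shallower libraries, and input 1 was the shallowest of all. In every library *psbA* and *rbcL*, the mRNAs of the D1 protein of photosystem II and of the large subunit of Rubisco, ranked first and second. In the median RNA the SD of log2 TPM was 0.09 over the pellets and 0.41 over the inputs.

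The 3 mRNAs of the operon were among the deeply sequenced ones. *psaA* had 5714, 8201 and 9986 reads in pellets 1, 2 and 3, against 855, 1738 and 2301 reads in inputs 1, 2 and 3. *psaB* had 6966, 10172 and 12571 reads in the pellets, against 432, 1499 and 1895 in the inputs. The short *rps14* had 1496, 2199 and 2631 reads in the pellets, against 147, 312 and 457 in the inputs. For the mean log2 enrichment (pellet over input, 3 pairs), counting alone gives a standard error of 0.02 for *psaA*, 0.03 for *psaB* and 0.06 for *rps14*. The standard errors from the spread between the 3 pairs were larger, at 0.15, 0.11 and 0.15 in the same order. 

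*psaA*, for a core protein of photosystem I, had 10342, 10923 and 11373.5 TPM in pellets 1, 2 and 3, against 16704, 12340.3 and 15111 TPM in inputs 1, 2 and 3. Every pellet was below every input, which was so for 3 of the 73 RNAs (4.11%), the others being *psbA* and *rbcL*. Among the 73 RNAs *psaA* held rank 22 in each of the pellets and ranks 10, 8 and 8 in the inputs. Its mean was 10879 ± 517 TPM in the pellets and 14718 ± 2208 TPM in the inputs (SD, n = 3 libraries). On the log2 scale the mean enrichment was -0.43 ± 0.26 (SD, n = 3 pairs), from -0.69, -0.18 and -0.41 in pairs 1, 2 and 3. This is 0.744-fold, with a 95% interval of 0.519 to 1.07, and it did not pass limma over all 73 RNAs (adjusted p = 0.15), where an adjusted p under 0.05 was taken as passing.

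*psaB*, for the partner of PsaA in the core, had 12859, 13819 and 14603 TPM in pellets 1, 2 and 3, against 8608, 10856 and 12693 TPM in inputs 1, 2 and 3. Every pellet was above every input, though the lowest pellet and the highest input were close, and 46 of the 73 RNAs (63%) had this pattern. Its mean was 13760.5 ± 873 TPM in the pellets and 10719 ± 2046 TPM in the inputs (SD, n = 3 libraries). Mean log2 enrichment came to 0.38 ± 0.19 (SD, n = 3 pairs), from 0.58, 0.35 and 0.20 in pairs 1, 2 and 3. This is 1.30-fold, with a 95% interval of 0.913 to 1.85, and did not pass limma (adjusted p = 0.182).

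*rps14*, for the ribosomal protein, had 13204, 14283 and 14613.5 TPM in pellets 1, 2 and 3, against 14005, 10803 and 14636 TPM in inputs 1, 2 and 3. The pellets lay within the range of the inputs. Its mean was 14034 ± 737 TPM in the pellets and 13148 ± 2055 TPM in the inputs (SD, n = 3 libraries). Mean log2 enrichment came to 0.11 ± 0.26 (SD, n = 3 pairs), from -0.08, 0.40 and -0.0022 in pairs 1, 2 and 3, so that 1 of 3 pairs was above 0. This is 1.08-fold, with a 95% interval of 0.750 to 1.54, and did not pass limma (adjusted p = 0.737).

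**Figure D2:**
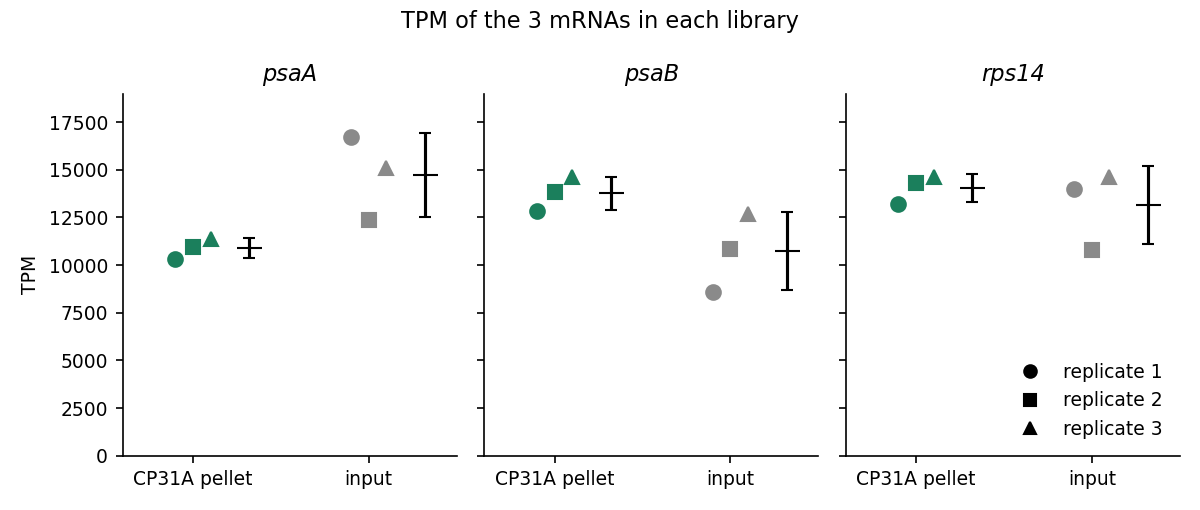
TPM (y axis, from 0) of *psaA*, *psaB* and *rps14* in the 3 CP31A pellets and the 3 inputs. Points are libraries, with 1 symbol for each replicate, and bars give the mean and SD (n = 3). All *psaA* pellets lie below all *psaA* inputs, all *psaB* pellets lie above all *psaB* inputs, and the *rps14* groups overlap.

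Thus 0 of the 3 mRNAs passed the test in either direction, while limma called 49.3% of all 73 RNAs enriched and 1.37% depleted, and all RNAs had a median log2 enrichment of 0.71. At an unadjusted p under 0.05 from limma 0 of the 3 passed as well, and *psaB* alone did so in the one-sided paired test of the methods before adjustment. The 3 mRNAs held ranks 47 (*psaB*), 57 (*rps14*) and 70 (*psaA*) of 73 by log2 enrichment. TPM are shares, and *psbA* alone took 325371 to 376180 TPM of the pellets and 393180 to 551105 TPM of the inputs, so the sign for *psaB* and *rps14* depends on the scaling. When library medians were set to 0, log2 enrichment was -1.26 for *psaA*, which passed limma (adjusted p = 0.00725), -0.45 for *psaB* and -0.72 for *rps14*, which did not. Rescaled without *psbA*, *rbcL* and *psbC*, the 3 most abundant RNAs of the input, it was -0.91 for *psaA*, which passed limma (adjusted p = 0.0464), -0.11 for *psaB* and -0.38 for *rps14*. The median of all RNAs was then -0.12 and 0.29 in the same order, and the 3 mRNAs lay below it as on the TPM scale. Each scaling shifts all RNAs of a library alike, so this is not a separate result. Only leaving out the 3 most abundant RNAs could move the median relative to the members. Without replicate 1 *psaA* passed at -0.29 (adjusted p = 0.0420 from limma), and without replicate 2 *rps14* was at -0.044.

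The inputs varied more than the pellets for all 3 genes. On the log2 scale, the SD over the pellets was 0.07, 0.09 and 0.08 for *psaA*, *psaB* and *rps14*, and that over the inputs was 0.22, 0.28 and 0.24. Input 1 differed from the mean of inputs 2 and 3 by 0.29 for *psaA*, by -0.45 for *psaB* and by 0.16 for *rps14* in log2 TPM. It thus held more *psaA* and less *psaB* than the other inputs. Its shallow depth gives the ratio of these mRNAs a counting error of 0.09 on the log2 scale, and whether anything else sets input 1 apart was not tested.

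The levels of the 3 mRNAs relative to each other do not depend on how libraries are scaled. In pellets 1, 2 and 3 the TPM of *psaB* was 1.24, 1.27 and 1.28 times that of *psaA*, while in inputs 1, 2 and 3 it was 0.515, 0.880 and 0.840 times that of *psaA*. By TPM, *psaB* was therefore the higher of the core mRNAs in every pellet and the lower in every input. For *rps14* over *psaA* the ratio was 1.28, 1.31 and 1.28 in the pellets and 0.838, 0.875 and 0.969 in the inputs. Here too the order turned between every pellet and every input. The ratio of *rps14* over *psaB* was 1.03, 1.03 and 1.0007 in the pellets and 1.63, 0.995 and 1.15 in the inputs, and the groups overlapped. In the pellets, then, *psaB* and *rps14* stood close to each other with *psaA* below them, and the 3 pellets gave nearly the same ratios.

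**Figure D3:**
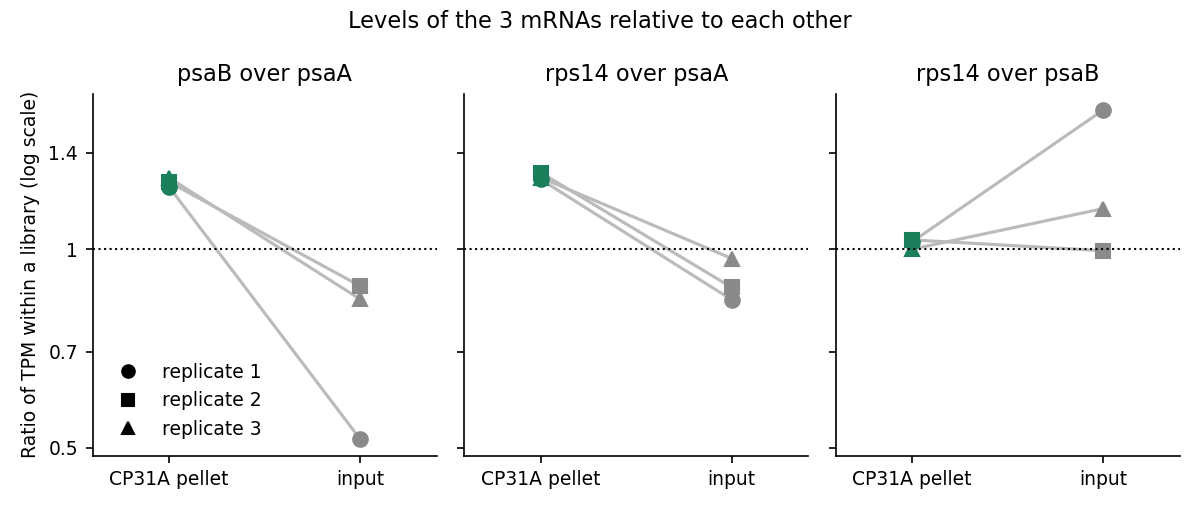
Ratio of TPM within a library (log y axis) for *psaB* over *psaA*, *rps14* over *psaA* and *rps14* over *psaB*. Points are libraries, lines join the pellet and the input of a pair, and the dotted line is a ratio of 1. The ratios to *psaA* lie above 1 in all pellets (1.24 to 1.31) and below 1 in all inputs (0.515 to 0.969), and the low input of *psaB* over *psaA* is that of replicate 1.

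These differences were tested with limma over all 81 pairs of genes that lie in 1 run, meaning genes of the table that follow each other on a strand with at most 500 nt between them. The log2 enrichment of *psaB* exceeded that of *psaA* by 0.80 ± 0.41 (SD, n = 3 pairs), from 1.27, 0.52 and 0.61 in pairs 1, 2 and 3. This is a relative enrichment of 1.74-fold with a 95% interval of 1.13 to 2.70 that is not corrected for the number of gene pairs, and after adjustment it did not pass (adjusted p = 0.121 from limma). For *rps14* over *psaA* the difference was 0.53 ± 0.11 (SD, n = 3 pairs), from 0.61, 0.58 and 0.41, the smallest spread of the 3 comparisons, and it did not pass (adjusted p = 0.146 from limma). *rps14* and *psaB* differed by -0.27 ± 0.36 (SD, n = 3 pairs), from -0.66, 0.05 and -0.20, which is less than the spread between pairs (adjusted p = 0.565 from limma). For *rps14* against *psaB* the 95% interval of the difference ran from -0.88 to 0.34.

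No gene pair of the 81 (0%) passed limma after adjustment, and 26 had an unadjusted p under 0.05, with 0 and 12 in the paired test on each gene pair alone. By size, *psaB* against *psaA* ranked 24 and *rps14* against *psaA* ranked 32 of the 81, where the median size was 0.34. The ratio ranges of pellets and inputs did not overlap for 35 of the 81 gene pairs (43.2%). A turn in the order of the levels was seen in 4 of the 81 (4.94%), and these were *psaB* over *psaA*, *rps14* over *psaA*, *ndhK* over *ndhC* and *ndhI* over *ndhA*. Gene pairs of a run share genes and are not independent of each other.

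An exact sign-flip test over the 3 pairs gave p = 0.25 for *psaB* against *psaA* and for *rps14* against *psaA*, the smallest that 3 pairs allow, and p = 0.5 for *rps14* against *psaB* (two-sided). With genes at most 200 nt apart, 28 gene pairs were tested and *psaB* against *psaA* passed (adjusted p = 0.0385 from limma). Without replicate 1, *psaB* against *psaA* was at 0.57 (adjusted p = 0.00436 from limma) and *rps14* against *psaA* at 0.49 (adjusted p = 0.0127 from limma), both past the threshold.

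On the TPM scale, the operon as a whole held nearly the same share of the pellets and of the inputs. The summed TPM of the 3 genes was 36405.5, 39025 and 40590.4 in pellets 1, 2 and 3, against 39317, 33999 and 42439 in inputs 1, 2 and 3. This is 3.97% ± 0.222 of the TPM in the pellets and 3.92% ± 0.437 in the inputs (SD, n = 3 libraries). The log2 ratio of the sums was 0.0079 ± 0.17 (SD, n = 3 pairs), with 1 of 3 pairs above 0. All RNAs had a median of 0.71 on this scale. The sum was not computed under the other scalings, where each of the 3 genes had a mean below 0. What differed was the make-up of the sum. *psaA* gave 28.0% to 28.4% of it in the pellets and 35.6% to 42.5% in the inputs. *psaB* gave 35.3% to 36.0% in the pellets and 21.9% to 31.9% in the inputs, while *rps14* gave 36.0% to 36.6% in the pellets and 31.8% to 35.6% in the inputs.

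The other chloroplast genes for photosystem I are *psaC*, for the protein that carries the last iron-sulfur clusters, and *psaI* and *psaJ*, for small membrane subunits. *ycf3* and *ycf4* encode proteins that help to assemble the complex. Together with *psaA* and *psaB* these are 7 genes, of which limma called 2 enriched and 0 depleted, against 49.3% and 1.37% of all RNAs, and 5 did not pass. Their median log2 enrichment was 0.47, against 0.71 for all RNAs. *psaI* had 7324, 8241 and 8444 TPM in pellets 1, 2 and 3, against 1831, 4271 and 4258 TPM in inputs 1, 2 and 3, where it had only 12, 77 and 83 reads. All its pellets lay above all its inputs, and its enrichment on the log2 scale averaged 1.31 ± 0.60 over the 3 pairs (SD), which passed limma (adjusted p = 0.00488). *ycf4* averaged 0.88 ± 0.36 over the 3 pairs (SD) and passed as well (limma, adjusted p = 0.0126). *psaC* (0.25), *psaJ* (0.47) and *ycf3* (0.48) did not pass. *psaA* was the only one of the 7 with a mean below 0 on the TPM scale. The count of 2 fell to 0 with either other scaling of the libraries and under the one-sided paired test, was 1 without replicate 2, without replicate 3 or with at least 20 reads in every library, and became 5 without replicate 1.

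*ycf3* is also the next gene before *psaA* on the same strand, 726 nt away and in no run with it by the rule above. Its TPM was 0.265, 0.264 and 0.246 times that of *psaA* in pellets 1, 2 and 3, against 0.131, 0.147 and 0.137 times in inputs 1, 2 and 3. The ranges did not overlap, and the log2 enrichment of *ycf3* exceeded that of *psaA* by 0.90 ± 0.10 (SD, n = 3 pairs; exact sign-flip p = 0.25, the smallest possible). *psaA* was thus below both of its neighbours in relative enrichment in 3 of 3 pairs.

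Proteins of the small ribosomal subunit are encoded by 10 mRNAs of the table, and *rps14* had the highest input level of these, at 13148 TPM, with *rps7* next at 6113 TPM. Of the 10, limma called 5 enriched and 0 depleted, a share near the 49.3% of all RNAs, with a median log2 enrichment of 0.77 against 0.71 for all RNAs. Among the enriched ones were *rps2* (1.12), *rps7* (0.93), *rps3* (0.81) and *rps12* (0.78). *rps4* (0.35) did not pass, and neither did *rps14* (0.11), *rps16* (-0.024) and *rps18* (-0.24). *rps14* thus held the third lowest value of the 10. The count of 5 fell to 0 with either other scaling of the libraries, to 3 under the one-sided paired test, to 2 without replicate 2 or with at least 20 reads in every library, and to 1 without replicate 3.

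**Figure D4:**
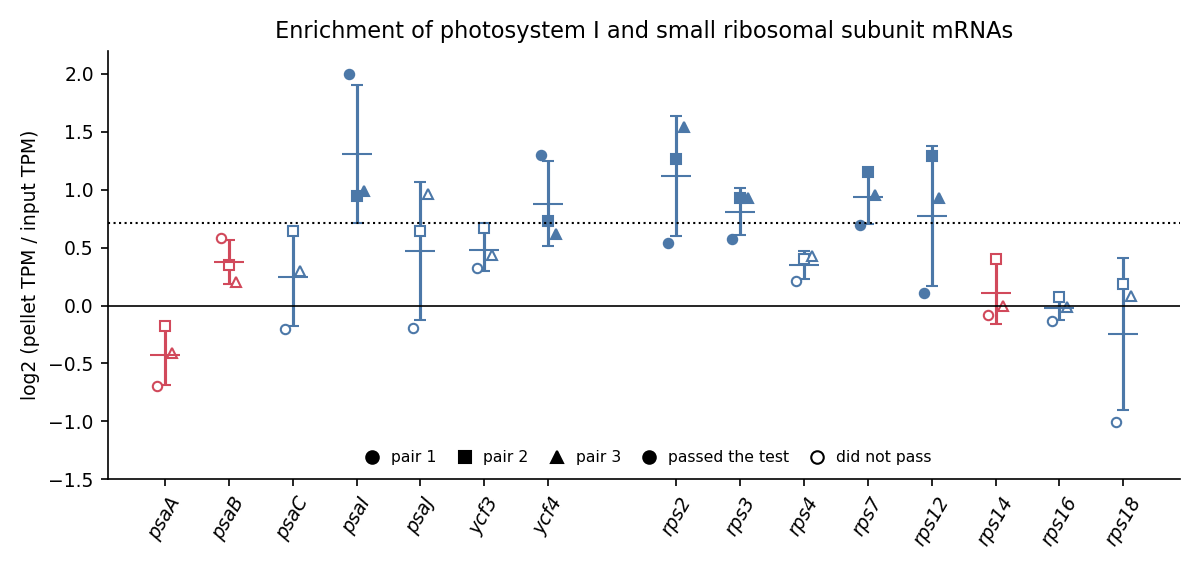
Log2 of pellet TPM over input TPM for 7 photosystem I genes (left) and the small ribosomal subunit genes that the text names (right). Points are the 3 pairs, filled where the mRNA passed limma at an adjusted p under 0.05, and bars give the mean and SD (n = 3). Red marks *psaA*, *psaB* and *rps14*, which did not pass, and the dotted line is the median of all RNAs, 0.71. The signs of *psaB* and *rps14* turn with either other scaling of the libraries.

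Over the 3 pairs, the RNA whose log2 enrichment was nearest to that of *psaA* was *rbcL*, with -0.59, -0.22 and -0.47 in pairs 1, 2 and 3 (Euclidean distance 0.13), followed by *psbD* (0.56) and *psbC* (0.61), for core proteins of photosystem II. For *psaB* the nearest were *ycf1.2* (0.17), *psbE* (0.28) and *psbZ* (0.35), the *psb* genes being for photosystem II subunits. For *rps14* they were *rpl33* (0.18), for a protein of the large ribosomal subunit, *rps16* (0.33) and *psbC* (0.35). Within the operon the distances were 1.5 for *psaA* and *psaB*, 0.93 for *psaA* and *rps14* and 0.70 for *psaB* and *rps14*. These are larger, but the RNAs above were picked as the nearest of all RNAs outside the operon. That they lie nearer than the operon partners thus follows largely from the choice. The difference between *psaB* and *psaA* was largest in pair 1, with the shallow input 1 (1.27, against 0.52 and 0.61 in pairs 2 and 3). The RNAs nearest to *psaA* are abundant ones, whereas *ycf1.2* had 209.9 TPM in the inputs. Of the 10 RNAs highest in the inputs, which include *psaA* and *rps14*, 6 had a mean log2 enrichment below 0, against 13 of all 73. The input level is itself the divisor of the enrichment, so that these quantities are not independent.

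**Figure D5:**
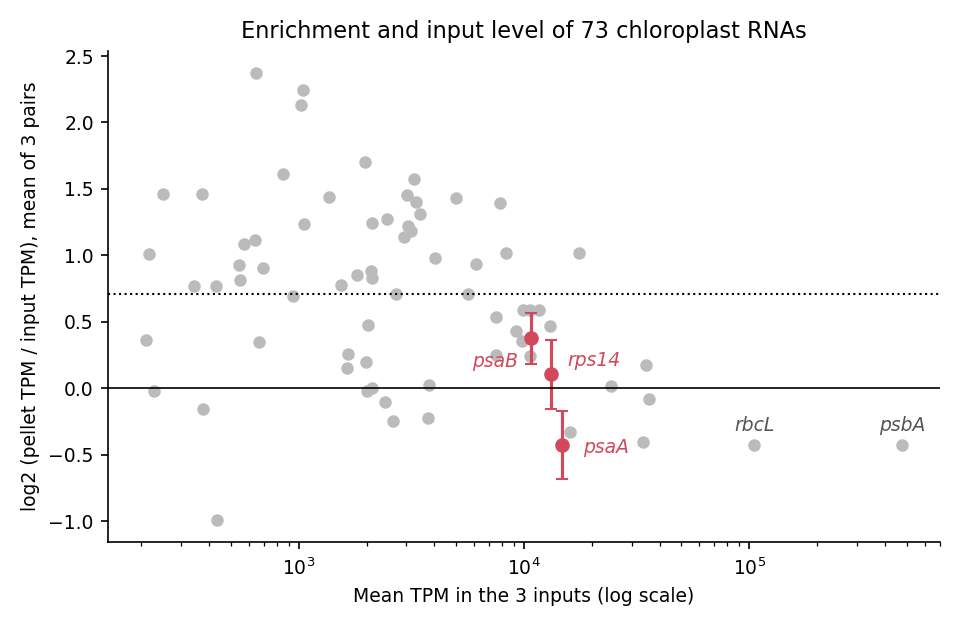
Mean log2 enrichment over 3 pairs (y axis) against mean input TPM (x axis, log scale) for the 73 RNAs. Red points are *psaA*, *psaB* and *rps14* with their SD over the pairs (n = 3), and the dotted line is the median of all RNAs, 0.71. The 3 genes lie at 10719 to 14718 TPM and below the median, and the signs of *psaB* and *rps14* turn with either other scaling.

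The counting windows of *psaA* and *psaB* were rich in G and C for this genome. The GC content was 41.5% for *psaA*, rank 5 of 77 genes, 39.9% for *psaB*, rank 9, and 36.2% for *rps14*, rank 28, against a median of 33.8% over genes. The U content of the coding strand was 32.4%, 34.0% and 30.4% for *psaA*, *psaB* and *rps14*, with a median of 32.8%. The part of base content in the enrichment was not tested.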

How the data were processed

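Per the labels and the methods, reads were processed by the authors with Trim Galore 0.6.4 (trimming), UMI-tools 0.5.4 (removal of duplicates by molecular identifier) and STAR 2.5.3 (alignment against TAIR10), counted with featureCounts on the coding strand (gene, introns and 100 nt on each side) and filtered to leave out genes with few reads. The authors deposited TPM for 77 entries per library and the log2 of each TPM (differing from log2 recomputed here by at most 3.55e-15). The table also holds the authors' mean enrichment and p-values, which were not used.

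Inverted-repeat copies were averaged to give 73 RNAs. TPM times window length and a factor per library gave whole reads (within 0.0001) for 450 of 456 values. The factor was the smallest at which over 90% were whole. For *rps12* and *psbC* the window was instead searched for, as the shortest that gave whole reads in every library at a looser tolerance. This gave 995 and 1586 nt, so whole reads at these lengths are no check of them. Positions and sequences came from the chloroplast sequence of TAIR10.1 (154478 bp), the record that the study names.

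limma 3.58.1 in R 4.3.3 was fitted two-sided to log2 TPM, no pseudocount added and replicate number entered as a block, with Benjamini-Hochberg adjustment over 73 RNAs or 81 gene pairs. The block rests on the methods, since pellet and input came from the same mix. Deviations from group means correlated at 0.17, 0.30 and -0.03 within numbers and at -0.27 to 0.19 between them. The labels and methods call the replicates triplicate harvests. The fits were also run on simulated data with independent noise in each library and no effect shared by a replicate. Recovery was required only at the largest simulated effect, which was above the differences reported for the members. The simulation therefore does not show how well effects of their size are found. Other steps ran in Python 3.11.15 (matplotlib 3.10.9, scipy 1.17.1, numpy 2.4.6, pandas 2.3.3).

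Named genes were the members, the other photosystem I genes, *rps* genes (some are not reported here), *psbA*, *rbcL*, same-strand neighbours, and the 3 RNAs nearest to each member over 3 pairs. *psbC*, *ndhC*, *ndhK*, *ndhA* and *ndhI* were also named after their values were seen. The members and lists were chosen with earlier results of these data known. Alternatives were no block, the one-sided paired test of the methods, other scalings, pseudocounts of 1 and 100, at least 20 reads in every library, unmerged copies, shorter gaps and each replicate left out.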

Additional observations from a re-analysis of the deposited data

How the results depend on the processing

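*psaA* stayed below 0 under all 11 alternatives and passed limma under 3 of them, both other scalings and, on the TPM scale, without replicate 1. Its sign could hardly turn, since all 3 pairs were below 0 and both other scalings lower all RNAs alike. The other alternatives that keep every replicate left its mean nearly unchanged. When library medians were set to 0 log2 enrichment was -1.26 for *psaA*, -0.45 for *psaB* and -0.72 for *rps14*, and rescaled without the 3 most abundant RNAs it was -0.91, -0.11 and -0.38. With a replicate left out it ran from -0.55 to -0.29 for *psaA*, from 0.28 to 0.46 for *psaB* and from -0.044 to 0.20 for *rps14*, whose sign turned without replicate 2 (-0.044). In those fits the variance was nearly or fully pooled over all features, so a call there follows the size of the mean and says little of how the 2 pairs left differ.

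*psaB* over *psaA* kept its direction under all 9 alternatives and passed limma at 0.80 with genes at most 200 nt apart. The direction could hardly turn, since all 3 pairs were above 0 and alternatives that keep every replicate left the mean nearly unchanged. Leaving out a replicate gave 0.57 to 0.94 for *psaB* minus *psaA*, 0.49 to 0.59 for *rps14* minus *psaA* and -0.43 to -0.07 for *rps14* minus *psaB*. Without the replicate block 10 of 81 gene pairs differed and the 3 members and their differences kept their calls (*psaA* -0.43, adjusted p = 0.0911 from limma). Gene pairs that differed numbered 1 of 32 with at least 20 reads in every library, 9 of 28 with genes at most 200 nt apart, and 0 to 41 with a replicate left out (41 without replicate 1).

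RNAs enriched numbered 36, against 20 under the one-sided paired test, 4 with medians set to 0, 5 when rescaled without the 3 most abundant, 19 of 49 under the minimum of 20 reads per library, and 21 to 58 with a replicate left out (58 without replicate 1, 21 without replicate 3). In the same settings the depleted ones numbered 0 (the one-sided test cannot call depletion), 9, 2, 0 and 0 to 4, against 1. The enriched photosystem I genes numbered 0, 0, 0, 1 and 1 to 5, against 2, and those of the small ribosomal subunit 3, 0, 0, 2 and 1 to 7, against 5. Depth limits the inputs most, where *rps14* had 147 reads in input 1.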
